A study of Homo sapiens with 2 samples.

Results

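Epithelial cells are held together by adherens junctions, desmosomes and tight junctions, and 45 genes that encode their parts were followed here, chosen by name from a fixed list that also takes in 3 gap junction genes. All 45 were found among the 58302 genes of the expression table, each on 1 row. The RNA came from Tu212, an established head and neck squamous carcinoma line that the labels describe as epithelial-derived. The vector control cells had received the empty pEZ vector, and the PRMT5 overexpression cells had received pEZ carrying PRMT5, an arginine methyltransferase, both for 48 h. There was 1 polyadenylated RNA library per group, and both groups were the same line with no other agent named in the labels. Whether they came from separate cultures is not stated. The differences below therefore have no replicate check and no p-value, and they compare 2 libraries, not conditions.

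In an adherens junction, cadherins on neighbouring cells bind each other outside the cell and catenins inside, which link them to actin. Desmosomes are built alike, with desmogleins and desmocollins outside and plakoglobin, plakophilins and desmoplakin inside, and they anchor keratin filaments. Squamous epithelia are rich in desmosomes. Tight junctions seal the space between cells through claudins and occludin, and polarity proteins place these belts at the top of the cell.

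Reads over all genes came to 14119997 for the vector control and 19908258, or 1.41 times as many, for PRMT5 overexpression. PRMT5 itself rated 145 and 293 reads per 1000000 (CPM, scaled by the trimmed mean of M-values), a 2.02-fold higher level where it was overexpressed. Where a pair of values follows, the vector control comes first. Epithelial markers were abundant in both libraries, CDH1 and EPCAM of the junction genes among them, and their 10 genes summed to 9938 CPM without and 10895 CPM with added PRMT5. The summed level of 9 fibroblast markers was 99.4 and 82.2 CPM, nearly all of it COL1A1. Of the sparse ones, DCN had 12 and 0 reads, COL1A2 26 and 7 and COL3A1 11 and 2, while MFAP5 had 12 and 21. The sums were 6.10 and 4.62 CPM for 6 endothelial markers, with CDH5 at 0 reads in both libraries. They were 1.82 and 1.015 CPM for 6 leukocyte markers, with PTPRC at 0 and 4 reads. For 3 neuronal markers they were 14.2 and 10.1 CPM, nearly all of it SYT1. Their part in any result was not tested.

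The junction genes took 1.401% of all reads in the vector control library (95% Clopper-Pearson interval 1.395% to 1.408%) and 1.35% in the PRMT5 overexpression library (1.344% to 1.354%). These intervals and all others here cover counting error only, and not variation between cultures. They treat reads as independent molecules, which reads are not, so they may be too narrow even for that. Desmosome genes made up most of this output. The 11 desmosome members held 62.3% and 61.6% of the junction reads, and DSG3, PKP1, DSC3, DSG2 and PERP alone held 51.4% and 50.5%. In bulk RNA, fewer cells of a type and less RNA per cell cannot be told apart.

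**Figure D1:**
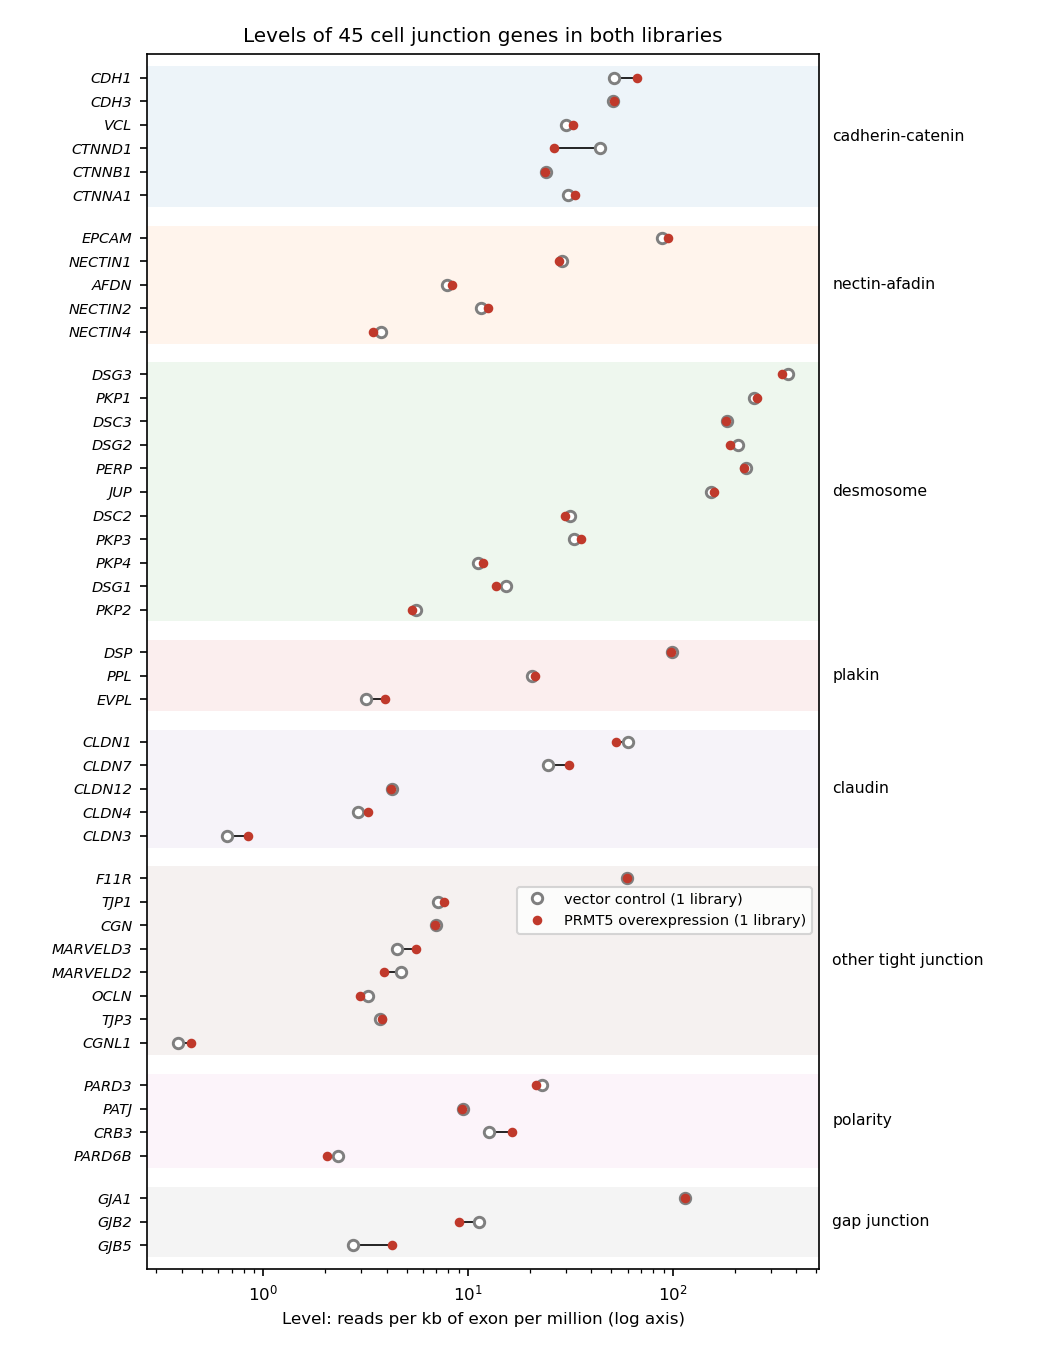
Level of each of the 45 junction genes in reads per kb of exon and per 1000000 reads (horizontal log axis), by class and ordered within a class by reads. Open grey circles are the vector control library and red points the PRMT5 overexpression library, 1 library each. The highest level was that of DSG3, at 367 and 340, and the lowest that of CGNL1, at 0.380 and 0.445, while the largest gap among well-read genes was that of CTNND1.

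Levels can be compared between genes only per length, here in reads per kb of merged exon length (GENCODE release 29) and per 1000000 reads. On that scale DSG3 ranked first in the vector control at 367, followed by PKP1 at 249, PERP at 226, DSG2 at 208, DSC3 at 184 and JUP at 154. The gap junction gene GJA1 at 115 and desmoplakin, DSP, at 99.2 came next. The highest tight junction gene was CLDN1 at 60.1, and the highest classical cadherin was CDH1 at 51.7, close to CDH3 at 50.9. The occludin gene OCLN at 3.25, CLDN4 at 2.91 and CLDN3 at 0.661 lay near the bottom. The order was much the same in the PRMT5 overexpression library, where the largest move was 7 places, that of GJB5 from place 42 to 35, and CTNND1 went from place 14 to 20. With the authors' own gene lengths in the deposited FPKM, CDH1 and CTNNB1 shifted by more than 5 places in the vector control, CDH1 from 12 to 18 and CTNNB1 from 21 to 15.

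Most junction genes differed little between the libraries. None of the 45 was 2-fold higher or lower, while among all 17777 measured genes, those with 10 or more reads in either library, 2.9% reached 2-fold higher and 1.94% reached 2-fold lower. At 1.5-fold, 1 member, GJB5, was higher and 1, CTNND1, was lower, against 7.06% and 5.33% of all measured genes. Most genes in those shares had few reads, so 13282 well-read genes, averaging at least 50 reads over both libraries, were also used. Of these, 44 were junction genes. At 2-fold, 106 of the 13282 well-read genes were higher and 107 lower, and 0 of 44 members on each side is near those shares. At 1.5-fold, 2.7% of the well-read genes were higher and 2.42% lower, and 1 in 44 members on each side is near those shares.

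The members spread evenly about 0. A log2 ratio, PRMT5 overexpression minus vector control, was above 0 in 23 members and below 0 in 22, where 48.8% and 51.2% of the well-read genes were above and below. The median log2 ratio was 0.00 for the junction genes and 0.00 for all measured genes. The counting interval lay above 0 in 12 members and below 0 in 9, against 17.1% and 17.3% of the well-read genes. Intervals narrow with depth, and the members were read more deeply, with a median of 1913 reads against 554. The part of depth in these interval counts was not tested. Among 28 members with a mean of 1000 or more reads, 25 lay within 1.2-fold, where 88.2% of all 4118 genes so deeply read did.

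**Figure D2:**
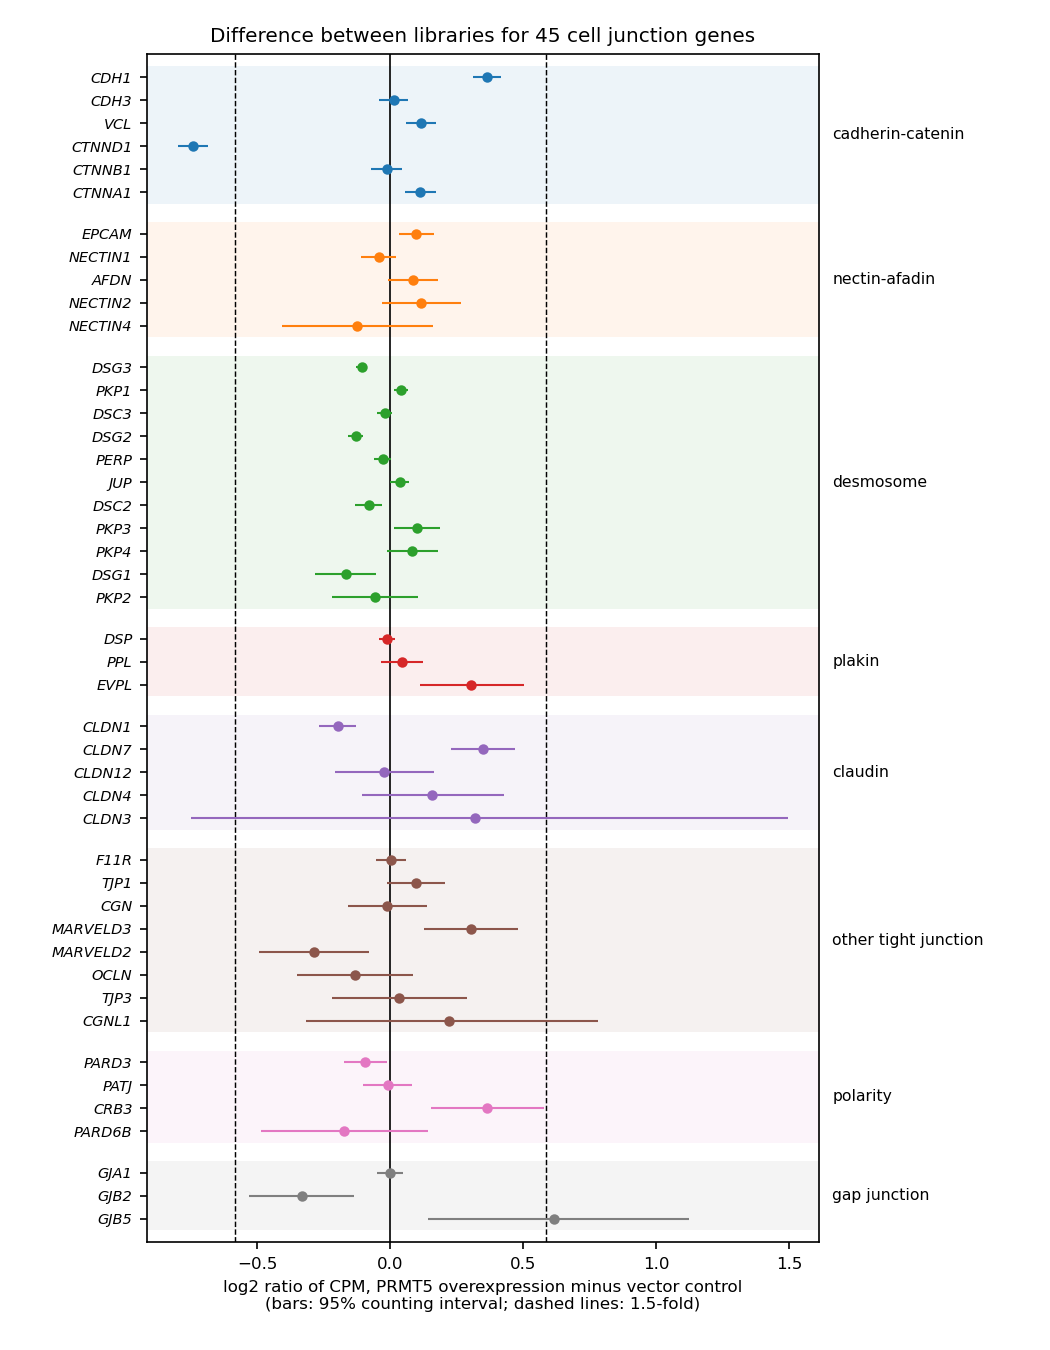
Log2 ratio of CPM for each junction gene (horizontal axis), PRMT5 overexpression minus vector control, by class, with 95% counting intervals as bars and 1.5-fold as dashed lines. CTNND1 at -0.74 and GJB5 at 0.62 lie past 1.5-fold, and the other 43 genes lie between -0.33 for GJB2 and 0.36 for CDH1 and CRB3.

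The adherens junction genes held the member with the lowest log2 ratio and 1 of the highest. CTNND1 encodes p120 catenin, which binds the cadherin tail near the membrane and keeps cadherins at the cell surface. It was at 386 CPM from 5504 vector control reads and at 231 CPM from 4548 reads in the other, deeper library. The level was 1.67-fold lower, with a log2 ratio of -0.74 (counting interval -0.80 to -0.69). Of 1138 measured genes whose mean read number was within 2-fold of that of CTNND1, 11 had a log2 ratio as low or lower, CTNND1 included.

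CTNND1 (ENSG00000198561) spans 57753243 to 57819546 on chromosome 11, plus strand (GRCh38). The readthrough gene TMX2-CTNND1 shares 321 exon bases with it and held 0 reads in both libraries, and AP001931.1, which shares 289 exon bases, held 4 and 4. Its log2 ratio was between -0.77 and -0.73 under every scaling and prior count run and in the deposited FPKM. Of the 50-base stretches of the members' longest transcripts, the share that occurs in transcripts of other genes was at most 9.39%, for OCLN. Genes that share exon bases with the member were left out of that share. The longest such overlap on the same strand was 1853 bases, between F11R and AL591806.3, which held 18 and 22 reads.

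CDH1 encodes E-cadherin, the main adhesion receptor of epithelial adherens junctions. It was at 319 CPM without and 411 CPM with added PRMT5, 1.29-fold higher, with a log2 ratio of 0.36 (counting interval 0.31 to 0.42). CDH1 and CTNND1, whose products bind each other, thus lay on opposite sides of 0. The reads of CTNND1 per read of CDH1 were 1.21 without and 0.561 with added PRMT5, a log2 change of -1.11. This pair joins the lowest and the highest log2 ratio of the cadherins and catenins, so a large change follows from the choice. Per read of CTNNB1 and of CTNNA1, the log2 change of CTNND1 was -0.73 and -0.86. No test of these changes between conditions is possible with 1 library each.

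The neighbouring cadherin gene was level. CDH3, which encodes P-cadherin, ends 14609 bases before CDH1 begins on chromosome 16, and it was at 318 and 321 CPM, a log2 ratio of 0.01 (counting interval -0.04 to 0.07). The CDH1 and CDH3 intervals do not overlap, but they cover counting error only, so a difference between conditions was not tested. The remaining catenins and their actin linker lay close to 0. Beta-catenin, CTNNB1, which also acts in Wnt signalling, was at 287 and 284 CPM, alpha-catenin, CTNNA1, at 272 and 294 CPM, and vinculin, VCL, which joins the complex under tension, at 300 and 325 CPM. The log2 ratios of CTNNA1 and VCL were 0.11 and 0.12, with intervals above 0. VCL shares 1109 exon bases on the opposite strand with AP3M1, which held 1970 and 2652 reads, and it was at 0.07 once summed with that gene, so its value is uncertain.

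**Figure D3:**
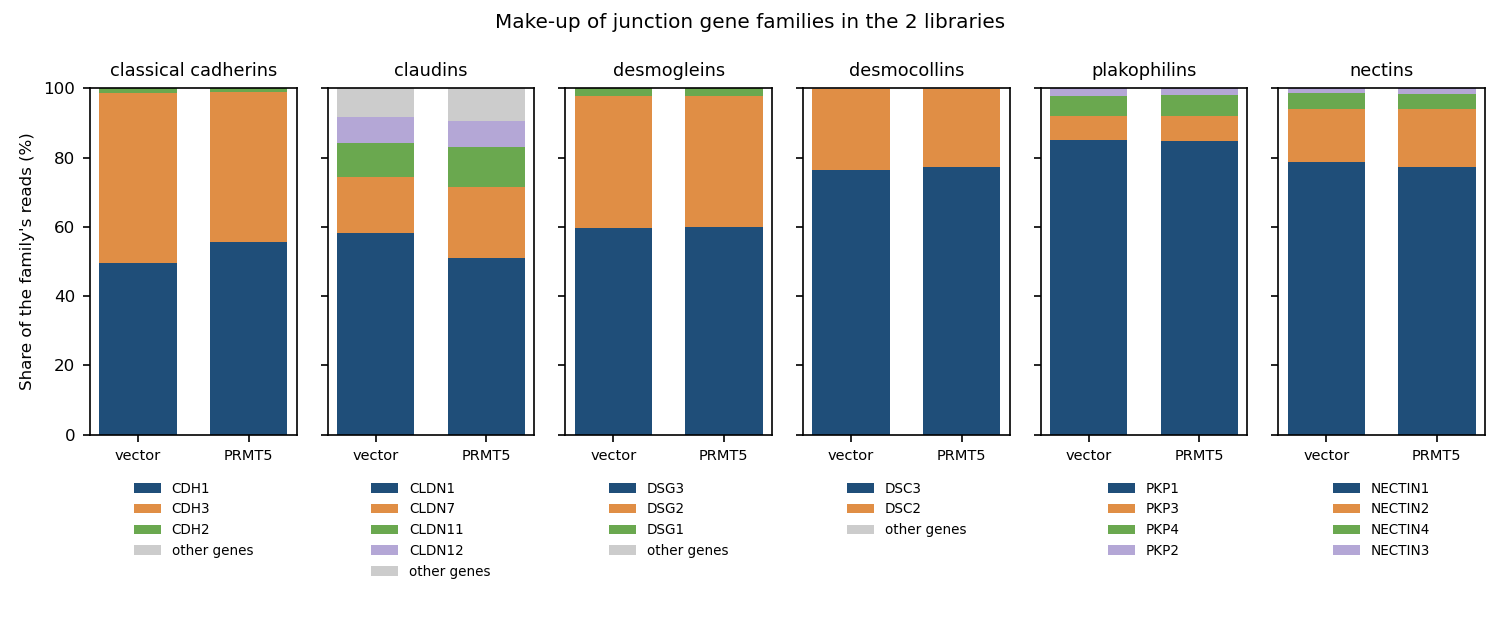
Share of each family's reads (percent, vertical axis) held by its genes in the vector control and the PRMT5 overexpression library, 1 library each, for 6 junction gene families. CDH1 had 49.5% of the classical cadherin reads in the vector control and 55.5% in the other library, CLDN1 58.3% and 50.9% of the claudin reads, and the other 4 families moved by less than 2 percentage points in their leading gene.

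Seen as a family, the classical cadherins CDH1 to CDH4 were almost all CDH1 and CDH3. By reads, CDH1 held 49.5% (interval 48.4% to 50.5%) and CDH3 49.2% in the vector control. With added PRMT5, CDH1 held 55.5% (54.7% to 56.3%) and CDH3 43.3%. In the deposited FPKM, which uses other gene lengths, CDH3 led in both libraries. CDH1 there held 38.6% against 59.0% for CDH3 in the vector control, and 44.5% against 53.4% with added PRMT5. By reads, CDH2, the N-cadherin of mesenchymal cells, held 1.34% and 1.14%. The epithelial cadherins thus made up nearly all of this family in both libraries.

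Nectins are a second set of adherens junction receptors, which bind actin through afadin. They were grouped here with the afadin gene and with EPCAM, which is not a nectin, and this group lay near 0 throughout. EPCAM, an epithelial adhesion molecule and the most highly read of this group, was at 223 and 238 CPM, with a log2 ratio of 0.10 (counting interval 0.03 to 0.16). NECTIN1 was at 221 and 215 CPM and the afadin gene AFDN at 108 and 115 CPM. NECTIN2 had the highest log2 ratio of the group, 0.12, at 43.2 and 46.8 CPM, and NECTIN4 the lowest, -0.12, at 13.1 and 12.0 CPM. Both of their intervals include 0.

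Among desmosome genes the desmosomal cadherins were all slightly lower in the PRMT5 overexpression library, while the proteins of the inner plaque were on both sides of 0. DSG3, the desmoglein of the deeper squamous layers and the target of autoantibodies in pemphigus vulgaris, was at 2026 and 1880 CPM. Its log2 ratio was -0.11 (counting interval -0.13 to -0.09). DSG2, the desmoglein found in all desmosome-bearing tissues, was at 1291 and 1180 CPM, and DSG1, the desmoglein of the upper epidermis, at 80.5 and 71.7 CPM. Their log2 ratios were -0.13 and -0.17, the latter the lowest of this class (counting interval -0.28 to -0.05). The desmocollin genes DSC2 and DSC3 were at -0.08 and -0.02, and the interval of DSC3, -0.05 to 0.01, includes 0. Each of these differences is far smaller than 1.5-fold.

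These 5 genes lie in 1 cluster on chromosome 18 between 30990008 and 31549008. DSC1, which lies in the same cluster, was at -0.03 from 74 and 100 reads. Further along, past DSG2, lay B4GALT6, at 0.04 (counting interval -0.36 to 0.44), and TRAPPC8, at -0.18 (counting interval -0.29 to -0.06). A log2 ratio below 0 was thus not particular to the cadherins in this stretch.

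The promoters of the 3 desmoglein members are shown because these neighbours lay on the same side of 0 and because the promoters of DSG1 and DSG3 share a stretch of sequence. The letters are the plus strand, from RefSeq (GRCh38.p14), and end before the first annotated exon base in GENCODE release 29. In DSG1 and DSG3 capitals mark the shared stretch, and in DSG2 they mark a CAGGTG E-box followed by a GGGCGG box. DSG1 also holds the E-box, on the minus strand and in lower case.
DSG1 chr18:31317910-31318088: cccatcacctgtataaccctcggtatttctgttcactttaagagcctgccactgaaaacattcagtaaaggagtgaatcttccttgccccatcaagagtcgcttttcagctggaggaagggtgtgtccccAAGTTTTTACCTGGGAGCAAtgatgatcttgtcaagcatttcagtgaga
DSG3 chr18:31447491-31447740: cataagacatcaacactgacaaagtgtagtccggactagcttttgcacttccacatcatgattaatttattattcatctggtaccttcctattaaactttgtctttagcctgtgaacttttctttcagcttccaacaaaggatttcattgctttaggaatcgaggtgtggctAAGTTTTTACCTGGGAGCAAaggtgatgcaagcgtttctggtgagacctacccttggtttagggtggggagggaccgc
DSG2 chr18:31497927-31498042: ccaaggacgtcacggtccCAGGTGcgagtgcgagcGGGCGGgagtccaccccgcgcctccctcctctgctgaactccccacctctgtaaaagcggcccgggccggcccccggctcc

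The stretch of 20 bases runs from 120 to 101 bases before the RefSeq start of DSG1 and from 78 to 59 bases before that of DSG3. It was the longest identical run on 1 strand among 885 pairs of promoter windows from different members, ahead of 16 bases for TJP1 and CRB3. Among 35116 promoter windows of all genes it occurred in these 2 genes alone. The levels of the 2 genes differ widely all the same, at 15.3 reads per kb per 1000000 reads for DSG1 and 367 for DSG3 in the vector control.

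The inner plaque of the desmosome was nearly level between the libraries. PKP1, the plakophilin of stratified epithelia, was at 1548 and 1592 CPM, a log2 ratio of 0.04 (counting interval 0.02 to 0.07). Plakoglobin, JUP, a catenin shared by desmosomes and adherens junctions, was at 762 and 781 CPM. PKP3 had the highest log2 ratio of the class at 0.10, with 125 and 134 CPM, followed by PKP4 at 0.08, and PKP2 was at -0.06. PERP, a tetraspan membrane protein of desmosomes and a p53 target, was at 971 and 953 CPM, or -0.03 in log2 (counting interval -0.06 to 0.00).

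The make-up of the desmosomal families hardly differed. DSG3 held 59.6% of the desmoglein reads in the vector control and 60.0% in the other library, DSC3 76.5% and 77.2% of the desmocollin reads, and PKP1 85.1% and 84.9% of the plakophilin reads. NECTIN1 likewise held 78.6% and 77.1% of the nectin reads.

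Plakins tie the plaque to keratin. Desmoplakin, DSP, was at 1001 and 993 CPM with a log2 ratio of -0.01, and periplakin, PPL, was at 158 and 163 CPM. Envoplakin, EVPL, a partner of periplakin in the cornified envelope, was at 23.8 and 29.5 CPM, a log2 ratio of 0.31 (counting interval 0.11 to 0.50). The less abundant plakin was therefore the only 1 of the 3 with an interval that leaves out 0.

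In the tight junction genes the leading claudins lay on opposite sides of 0. CLDN1, the barrier claudin of the epidermis, was at 220 and 192 CPM. Its log2 ratio was -0.20 (counting interval -0.27 to -0.13). CLDN7, a claudin that also binds EPCAM, was at 61.0 and 77.7 CPM, with a log2 ratio of 0.35 (counting interval 0.23 to 0.47). CLDN7 shares 38 exon bases on the opposite strand with ELP5, which held 535 and 849 reads, and it was at 0.29 once summed with that gene. Among the reads of all 24 claudin genes in the table, CLDN1 held 58.3% (56.9% to 59.6%) and then 50.9% (49.7% to 52.0%), and CLDN7 16.1% (15.2% to 17.2%) and then 20.6% (19.7% to 21.5%).

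The other claudins were low. CLDN12 was at 28.8 and 28.3 CPM, although it shares exon bases with GTPBP10 and CDK14 and was at -0.23 once summed with them, so its value is uncertain. CLDN4 was at 13.7 and 15.3 CPM, or 0.16 in log2 (counting interval -0.11 to 0.43). CLDN3, with 12 and 21 reads, was the only member that was not well read, and its interval, -0.75 to 1.497, spans 0 widely.

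Windows upstream of the 2 leading claudins are shown since the genes lie on opposite sides of 0, with capitals for GGGCGG boxes on either strand. Both genes are on the minus strand, and the letters read in the direction of the gene. The first is shorter because exon bases were left out, and the second precedes a RefSeq start that lies inside the CLDN7 span of the expression table.
CLDN1 chr3:190322476-190322540: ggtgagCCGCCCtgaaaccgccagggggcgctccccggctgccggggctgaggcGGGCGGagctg
CLDN7 chr17:7263214-7263463: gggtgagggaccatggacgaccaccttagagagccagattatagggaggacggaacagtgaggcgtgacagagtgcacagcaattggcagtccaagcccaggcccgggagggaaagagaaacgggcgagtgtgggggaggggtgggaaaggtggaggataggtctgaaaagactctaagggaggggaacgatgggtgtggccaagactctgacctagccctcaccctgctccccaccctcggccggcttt

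The CLDN1 stretch holds 2 GGGCGG boxes and the CLDN7 stretch none, and neither holds a CAGGTG E-box. Both motifs do occur in CLDN7 promoter windows, at bases that are not shown here. A match describes letters and not a bound site, and a missing match says only that these letters are not in the stretch shown.

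The other tight junction membrane proteins also differed in direction. MARVELD2 (tricellulin), which seals the corners where 3 cells meet, was at 25.3 and 20.7 CPM, a log2 ratio of -0.29 (counting interval -0.49 to -0.08). Its relative MARVELD3 was at 29.1 and 35.9 CPM, a log2 ratio of 0.30 (counting interval 0.13 to 0.48). MARVELD3 shares 1068 exon bases on the opposite strand with PHLPP2, which held 191 and 301 reads, and it was at 0.27 once summed with its exon-sharing genes. The occludin gene OCLN, which begins 47962 bases after MARVELD2 ends on chromosome 5, was at 21.9 and 20.0 CPM, or -0.13 in log2 (counting interval -0.35 to 0.09).

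The receptor and scaffold genes of the tight junction were level. F11R, which encodes the junctional adhesion molecule JAM-A, was at 302 CPM in both libraries. TJP1, the scaffold ZO protein that ties claudins to actin, was at 80.5 and 86.1 CPM with a log2 ratio of 0.10, and TJP3 was at 0.03. Cingulin, CGN, was at 45.9 and 45.6 CPM, and the low paralogue CGNL1 was at 0.22 in log2 from 47 and 76 reads (counting interval -0.32 to 0.78).

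Of the polarity genes, CRB3 stood highest. It encodes the short crumbs protein of the apical membrane and was at 20.1 and 25.9 CPM, a log2 ratio of 0.36 (counting interval 0.15 to 0.58). CRB3 shares 15 exon bases on the opposite strand with DENND1C, which held 59 and 105 reads. Its cytoplasmic partner PATJ was level at 113 and 112 CPM. PARD3, the scaffold of the PAR complex, was at 149 and 140 CPM, or -0.09 in log2 (counting interval -0.18 to -0.01), and PARD6B, its partner, was at -0.17 from 155 and 190 reads (counting interval -0.49 to 0.14).

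Gap junction genes encode connexins, which form channels between cells. GJA1 was level, at 391 CPM in both libraries, and held most reads of this group. GJB2, a connexin of wounded and proliferating epidermis, was at 28.8 and 22.9 CPM, a log2 ratio of -0.33 (counting interval -0.53 to -0.14). GJB5, a skin connexin, was at 3.72 and 5.73 CPM from 53 and 113 reads, 1.53-fold higher, with a log2 ratio of 0.62 (counting interval 0.14 to 1.12). Its interval spans 1.5-fold widely, and on the deposited FPKM scale with a pseudocount of 1 its log2 ratio was 0.46, under 1.5-fold. GJB2 and GJB5 thus lay at opposite ends of the members apart from CTNND1.

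Upstream windows of GJB2 and CRB3 are shown as those of the members farthest below and above 0 among those with a RefSeq window, with capitals for GGGCGG boxes on either strand. The GJB2 gene is on the minus strand and CRB3 on the plus strand, and the CRB3 stretch lies inside the span of that gene in the expression table.
GJB2 chr13:20193011-20193188: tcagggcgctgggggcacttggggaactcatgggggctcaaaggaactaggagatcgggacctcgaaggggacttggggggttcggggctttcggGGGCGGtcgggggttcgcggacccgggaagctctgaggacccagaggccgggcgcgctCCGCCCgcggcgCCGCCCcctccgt
CRB3 chr19:6464214-6464270: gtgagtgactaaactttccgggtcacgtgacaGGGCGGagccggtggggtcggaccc

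Across the 43 RefSeq windows of 300 bases (250 before and 50 after a start) that 31 members had, GGGCGG occurred on either strand in 32, or 74.4%, against 44.95% of all 35116 windows. The E-box CAGGTG, which repressors of CDH1 of the SNAIL and ZEB families bind, occurred in 16, or 37.2%, against 20.6%. The letters TATAAA occurred in 1, or 2.33%, against 11.5%. Several windows belong to 1 gene, so these shares are descriptions without a test. The 35116 windows were not limited to measured genes, while all 45 members were measured. Whether the shares are particular to junction genes was therefore not tested. The 14 members with no window used here were CDH1, CDH3, CTNND1, EPCAM, EVPL, F11R, GJB5, MARVELD3, NECTIN1, PARD3, PARD6B, PKP2, PKP3 and PPL.

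**Figure D4:**
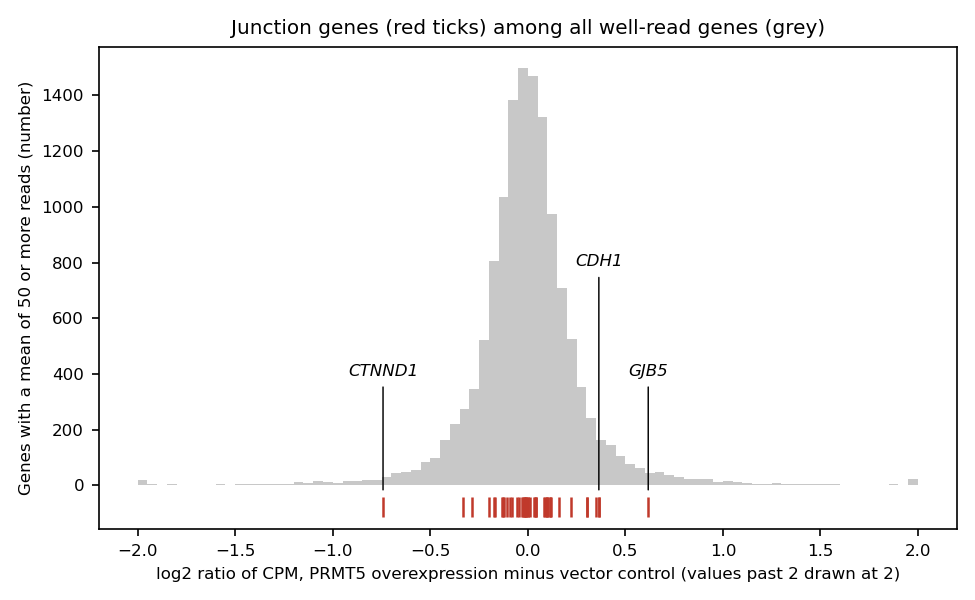
Number of genes (vertical axis) by log2 ratio of CPM, PRMT5 overexpression minus vector control (horizontal axis), for 13282 well-read genes in grey, with the 44 junction genes so well read as red ticks. The ticks gather in the centre of the distribution, and CTNND1 at -0.74 and GJB5 at 0.62 stand outside the others.

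Gene length and depth were set beside the members' log2 ratios, as a description. Across the 45 members Spearman's rho was -0.12 with exon length and -0.18 with mean reads, and across 13264 well-read genes it was -0.14 and 0.06. All points come from the same 2 libraries. The part of length and depth in the members' values was not tested.

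Genes linked to the junctions but outside the 45 were counted in 5 lists. Of 43 measured genes in a wider junction list of further cadherins, claudins, connexins and scaffolds, 1 was at least 1.5-fold higher and 4 lower, with a median log2 ratio of -0.01. The counts were 0 and 1 of 10 hemidesmosome genes, 0 and 1 of 28 junction actin genes, 0 and 0 of 26 transcription regulators of junction genes, and 1 and 2 of 20 genes for shedding and turnover. The medians of these 4 lists were 0.03, 0.02, -0.04 and -0.08. Across all measured genes those shares were 7.06% higher and 5.33% lower. The genes past 1.5-fold that are named next were all well read.

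In the wider junction and actin lists, 4 well-read genes were past 1.5-fold. They were 1 higher and 2 lower of 36 in the wider junction list, and 0 higher and 1 lower of 28 in the actin list. Among all well-read genes 2.7% were higher and 2.42% lower. PLEKHA7, which binds p120 catenin, was at 4.07 and 2.38 CPM from 58 and 47 reads, a log2 ratio of -0.76 (counting interval -1.36 to -0.19). AJUBA, a LIM protein that binds alpha-catenin, was at 120 and 71.9 CPM, a log2 ratio of -0.74 like that of CTNND1 (counting interval -0.85 to -0.64). PVR, a relative of the nectins, was at 17.95 and 9.64 CPM, a log2 ratio of -0.89. PRKCI, the atypical protein kinase C that works with PARD3 and PARD6B, was at 72.4 and 119 CPM, a log2 ratio of 0.72 (counting interval 0.61 to 0.82).

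Of the well-read genes in the 5 lists, CBLL1 and RAB11A, both of the shedding and turnover list, lay furthest out. The median of the 19 well-read genes of that list was -0.08, and a link of either gene to the CDH1 level was not tested. CBLL1, which encodes the ubiquitin ligase Hakai that marks E-cadherin for uptake, was at 21.5 CPM and 5.88 CPM, from 307 and 116 reads, 3.63-fold lower, with a log2 ratio of -1.86 (counting interval -2.19 to -1.56). It was at -1.63 once summed with AC002467.1, which shares its exon bases. RAB11A, a GTPase of recycling endosomes through which E-cadherin returns to the membrane, was at 56.4 and 106 CPM, 1.88-fold higher, with a log2 ratio of 0.91 (counting interval 0.80 to 1.03). CD151, a tetraspanin that binds laminin receptors, was at 139 and 89.9 CPM and a log2 ratio of -0.63, but at -0.24 once summed with POLR2L and AP006621.1, which share exon bases with it, so its value is uncertain.

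**Figure D5:**
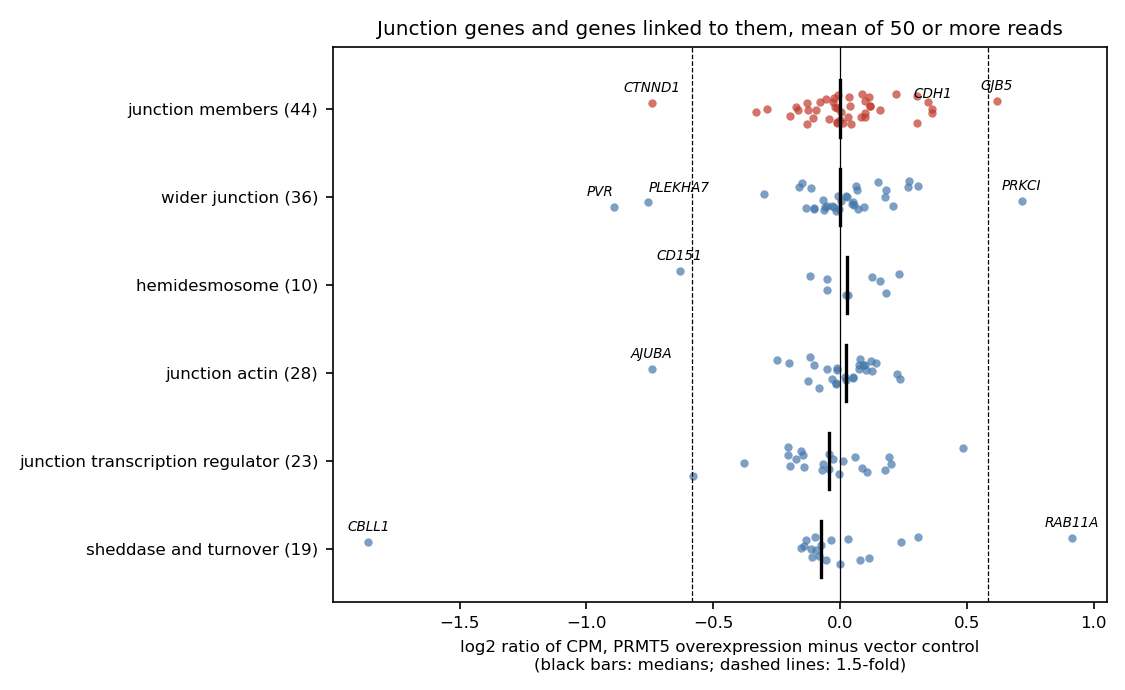
Log2 ratio of CPM, PRMT5 overexpression minus vector control (horizontal axis), for junction genes in red and genes of 5 linked lists in blue, each point a well-read gene (number in brackets), with list medians as black bars and 1.5-fold as dashed lines. Every median lies between -0.08 and 0.03, and CBLL1 at -1.86 and RAB11A at 0.91 are the outermost genes.

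The transcription regulator list opens with 9 factors of the SNAIL, ZEB, TWIST and TCF families, which can repress CDH1, and they lay on both sides of 0. They were chosen from that list after its values were seen. SNAI2 was at 78.1 and 68.1 CPM, a log2 ratio of -0.20 (counting interval -0.31 to -0.08), and SNAI3 was at -0.18 (counting interval -0.53 to 0.18). TCF3 was at 99.9 and 108 CPM, a log2 ratio of 0.11 (counting interval 0.01 to 0.21). TWIST1 was at 0.20 (counting interval -0.03 to 0.43) and TCF4 at 0.09 (counting interval -0.03 to 0.20). The others were hardly read, with 16 and 21 reads for SNAI1, 9 and 18 for ZEB1, 3 and 1 for ZEB2, and 0 in both libraries for TWIST2.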

How the data were processed

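Polyadenylated RNA of Tu212 cells was sequenced, 1 library per group, grouped by the genotype in the labels. Per the submitters' processing notes, which give no roles, the tools were HISAT2 2.1.0, StringTie 1.3.4b, CASAVA 1.8 and edgeR, and the builds hg38 and GRCh38. How strand was handled in counting is not given in these sources. The authors deposited raw counts and FPKM per gene. Counts were used as deposited, and 221 symbols on several rows were summed. The deposited FPKM matched count over total count and 1 fixed gene length to within 1% in 100% of 11478 genes checked.

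Counts were scaled by TMM on genes with 10 or more reads in a library (edgeR 4.0.16, R 4.3.3; factors 1.01 and 0.990). Log2 CPM used a prior count of 1. Ratio intervals are exact binomial at 95%. No test was run, since genes are not replicates; edgeR's use here was scaling only. Depth limits precision for genes with few reads. Exon lengths and exon-sharing genes (either strand, 10 or more reads) came from GENCODE release 29, where 39 of 45 members had the same position; 11 members had such a partner. Stretches of 50 bases were taken every 10 bases.

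Members and lists were chosen with earlier results of these data known. The rule for named genes took members at 1.5-fold or more with a mean of 50 or more reads, per class the most read, highest and lowest, and up to 4 such genes per linked list; other members are given by level. The procedure was tested on simulated data. These held counting noise only, so the test does not cover variation between cultures. Alternatives were DESeq2 1.42.0 size factors, total counts, prior counts of 0.1 and 5, other floors, protein-coding genes, genes without exon partners, sums with partners, the highest row per symbol, FPKM with a pseudocount of 1, and the mean. Other software was matplotlib 3.10.9, scipy 1.17.1, pandas 2.3.3, Python 3.11.15 and numpy 2.4.6. Of the columns per sample, 0 were unused.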

Additional observations from a re-analysis of the deposited data

How the results depend on the processing

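No paired analysis was possible because there was 1 library in each group. With 1 library per group, no replicate could be left out. The restriction to well-read genes, at least 50 reads on average, was chosen after seeing the data. The median log2 ratio of the junction genes, 0.00, lay between -0.03 and 0.03 under every alternative run for it, and the number at least 2-fold apart was 0 under each. Settings that only change which genes are counted could not raise that number. Of 315 member values recalculated, 307 stayed inside their counting intervals and 4 changed sign, all from log2 ratios of at most 0.01 in size. Some of the 315 could not move by construction. The highest row per symbol is the same value, since no member is on several rows. Sums with partners could not change the 34 members without a partner. Total counts alone moved DSG2 to -0.16, DSG3 to -0.14, DSC3 to -0.05 and PKP1 to 0.01. With deposited FPKM, 0 members were at least 1.5-fold higher, against 1, which the pseudocount brings about by construction for a low gene.

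Counted over all genes, 2-fold higher and lower came to 516 and 344. A prior of 5 gave 267 and 227, FPKM 75 and 54, no floor 2145 and 2872, a 50-read floor 136 and 118, protein-coding genes 238 and 219, genes lacking exon partners 284 and 204, and well-read genes 106 and 107. For 1.5-fold the main counts were 1255 and 947. FPKM gave 326 and 223, no floor 4917 and 4346, a 50-read floor 442 and 348, protein-coding genes 571 and 602, genes lacking exon partners 717 and 597, and well-read genes 358 and 322. All but the prior, FPKM and missing floor test fewer genes by construction.

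In the 5 linked lists together, 0 genes were at least 2-fold higher and 2 lower. With no floor these became 7 and 6, and the lower count became 1 with a prior count of 5, FPKM, a floor of 50 reads, no exon partners or well-read genes. At 1.5-fold, 2 higher and 8 lower became 12 and 14 with no floor, and the lower count became 4 with FPKM, 5 with a floor of 50 reads, 4 without exon partners and 5 with well-read genes. The hemidesmosome median of 0.03 became 0.0775 without exon partners; the cause was not tested. The hemidesmosome and actin medians fell below 0 with total counts, to -0.0024 and -0.0065, and in FPKM, to -0.0021 and -0.0060. The shifts in the shares of CDH1, CLDN1, DSG3, DSC3 and PKP1 in their families kept their sign per kb of exon and in FPKM, while that of CLDN12, 7.61% to 7.496% by reads, was 3.39% to 3.49% in FPKM.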

Other observations

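Some relatives of the junction genes, chosen after their values were seen, differed by less than 1.5-fold with intervals that leave out 0. GJB6, a connexin gene close in role to GJB2, was at 63.8 and 51.8 CPM, a log2 ratio of -0.30 (counting interval -0.43 to -0.17). CLDN11 was the third most read claudin, at 36.4 and 43.9 CPM, a log2 ratio of 0.27 (counting interval 0.11 to 0.43). SPINT1, an inhibitor of the membrane protease matriptase, was at 123 and 153 CPM, a log2 ratio of 0.31 (counting interval 0.22 to 0.39). The epithelial transcription factors GRHL3 and EHF were at 0.48 and -0.58, with intervals of 0.21 to 0.76 and -0.99 to -0.19. KRT8, a simple epithelial keratin, was at 40.6 and 54.0 CPM and a log2 ratio of 0.41 (counting interval 0.26 to 0.56).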
